A study of Mus musculus with 16 samples.

Results

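Dorsal hippocampus from 8 mice that drank caffeine was compared with that from 8 mice that drank water, over mice left at rest and mice that had been trained. Members were taken by treatment label alone, so that all 16 of the 16 sequenced mice entered, and the condition (rest or training) was a further term of the model. The estimate is therefore an average of the caffeine effects in both conditions, and the effects in each are given beside it where they differ. All mice were C57Bl6/J and, per the methods, male. Treatment began at 8 to 9 weeks of age. The 4 groups were home cage water (4 mice), home cage caffeine (4 mice), learning water (4 mice) and learning caffeine (4 mice). Caffeine was dissolved in the drinking water at 0.3 g/L and offered for 2 weeks, and the controls drank plain water. Home cage mice were not trained, and learning mice were killed 1 hour after the end of 3 days in the Morris water maze, a spatial memory task in which a mouse finds a hidden platform. The dose is that of the bottle, and the amount that each mouse drank is not part of the labels.

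Caffeine blocks adenosine receptors, mainly the A1 receptor (Adora1), which is dense in the hippocampus and dampens glutamate release, and the receptor that Adora2a encodes, which is concentrated in the striatum and sparse in the hippocampus. At higher concentrations it also inhibits cyclic nucleotide phosphodiesterases and opens calcium stores through ryanodine receptors. Activity of neurons in turn induces immediate early genes within minutes, so a snapshot of hippocampal mRNA can hold both slow adaptation to the drug and the most recent activity.

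Counted reads came to between 23078094 and 49949281 per mouse, with a mean 1.13 times as large in caffeine as in water mice (exact two-sided permutation test, p = 0.260). Mitochondrial transcripts took 3.23% to 4.49% of counts, with the highest share in home cage caffeine mouse 17. Over the 24 pairs of mice within groups, counts differed by 5.49 to 32.2 times the chi-square expected from sampling alone, so that no 2 libraries were repeats of each other. Choroid plexus transcripts varied most between mice and were highest in home cage water mouse 20, and the gene groups that leaned most to one side are also given with the level of these transcripts as a term and without home cage water mouse 20 and home cage caffeine mouse 17.

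No gene passed the threshold for a caffeine effect over both conditions. Of 17830 genes tested with edgeR's quasi-likelihood test, 0 were called higher and 0 lower at a Benjamini-Hochberg adjusted p under 0.1, a share of 0%, and the smallest adjusted p was 0.524. An unadjusted p under 0.05 was reached by 751 genes, 4.21% of those tested, of which 369 (2.07%) were higher and 382 (2.14%) were lower under caffeine. DESeq2's Wald test gave 744 genes with an unadjusted p under 0.05 and called 4 genes lower, Tmem72, Prlr, Slc4a5 and Acox2, and 0 higher. The outcome depended on the filter for low counts: with at least 1 count in total as the only filter, edgeR called 1 gene higher (Apln) and 23 lower, 11 of the 24 from the choroid plexus list. The median log2 fold change over all tested genes was -0.0041, the interquartile range ran from -0.06 to 0.05, and the 95% interval reached a median of 0.15 to either side of the estimate. Negative estimates made up 52.3% of all tested genes. Among the 13379 genes whose mean level reached a log2 CPM of 1, 12985 (97.1%) had an interval that lay wholly within a log2 fold change of 0.5 in either direction, and 10155 (75.9%) within 0.25.

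**Figure D1:**
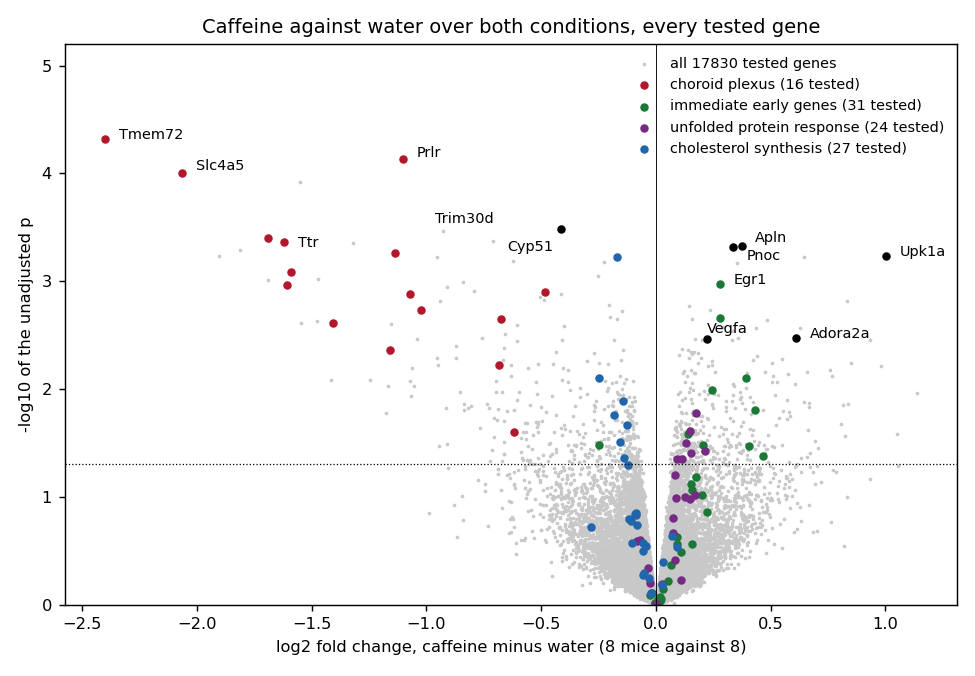
Points are the 17830 tested genes, with the log2 fold change of caffeine over water on the x axis and the unadjusted edgeR p, as -log10, on the y axis; the dotted line lies at 0.05. The 16 choroid plexus genes spread to the left, down to -2.40 for Tmem72, while genes higher under caffeine reached a log2 fold change of 1.1.

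Effects of the drug in the 2 conditions come from separate mice and can be set side by side. Fitted apart, home cage and learning mice gave the same sign in 9122 of 16879 genes (54.0%). Across the same 13379 genes of higher level the log2 fold changes of the 2 conditions had a Spearman rho of 0.09 and a Pearson r of 0.13, and without the 16 choroid plexus genes r was 0.03; genes are not independent replicates and no p is attached. In the same set, 27 genes had an unadjusted p under 0.05 in both conditions with the same sign and 17 with opposite signs, and without the choroid plexus list the counts were 17 and 17. The test of the difference between both caffeine effects called 0 of 17830 genes (0%), with a smallest adjusted p of 0.359 and 648 genes (3.63%) at an unadjusted p under 0.05, against 7 genes called by DESeq2.

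Outside the choroid plexus list, the genes at an unadjusted p under 0.05 with the same sign in both conditions included the following, named after their values were seen and to be read beside the equal number with opposite signs. Mlxipl, the glucose-sensing transcription factor ChREBP, had log2 fold changes of 0.34 in the home cage and 0.38 after learning. Mthfd1l, a mitochondrial enzyme of folate metabolism, had -0.24 and -0.21, and Angptl2, a secreted angiopoietin-like protein, had -0.47 and -0.50. Ptpn5, the striatum-enriched phosphatase STEP, which opposes synaptic strengthening, had 0.22 and 0.11. Htr2c, a serotonin receptor gene that the choroid plexus expresses strongly, had -0.60 and -0.22.

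Among the 20 genes of smallest p, 6 are choroid plexus markers. Another 7 had negative estimates of at least 0.7 in size that moved toward 0 when the choroid plexus level was a term. That level itself ran lower under caffeine, so such a move does not show that a gene belongs to the plexus. These 13 genes are described together below. The remaining 7 were Apln, Pnoc, Upk1a and Knstrn, which were higher under caffeine, and Trim30d, Cyp51 and BC018473, which were lower; each had an adjusted p of 0.524. Apln, on chromosome X from 48025146 to 48034853 (mm10, GENCODE M21), encodes apelin, a secreted peptide that acts on vessels and neurons through its receptor. Its normalised count, in CPM (counts scaled to a common library total), was 19.1, 21.1, 19.4 and 20.2 in the home cage water mice and 24.3, 26.5, 24.5 and 22 in the home cage caffeine mice. After learning it was 23.1, 21.1, 20.8 and 18.2 with water and 39.3, 25.8, 26.5 and 23.0 with caffeine. The home cage groups did not overlap, and in the learning groups 3 of 4 caffeine mice lay above all water mice, with 1 of them far above the rest. Apln was 1.30-fold higher over both conditions (log2 fold change 0.37, SE 0.088, 95% interval 0.19 to 0.56, unadjusted p = 0.000473). With the choroid plexus level as a term the value was 0.49, without mice 20 and 17 it was 0.41, and without learning caffeine mouse 22 it was 0.28.

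Pnoc (chromosome 14, 65400673 to 65425472), the precursor of the opioid-like peptide nociceptin of inhibitory neurons, was measured at 8.49, 6.50, 7.37 and 7.20 CPM in home cage water mice and 10.5, 10.6, 9.05 and 11.4 CPM in home cage caffeine mice. In learning mice the values were 6.29, 6.71, 7.16 and 7.20 CPM with water and 8.10, 8.67, 7.06 and 7.04 CPM with caffeine. All home cage caffeine mice lay above all home cage water mice, whereas the learning groups overlapped. The log2 fold change was 0.34 (SE 0.079) over both conditions, 0.50 (SE 0.10) in the home cage and 0.18 (SE 0.10) after learning, with an unadjusted p of 0.0401 for the difference between conditions. Of the 10 tested interneuron markers, 1 was higher at an unadjusted p under 0.05 (Npy, 0.20) and 0 were lower, beside 2.07% and 2.14% of all genes, with a median of 0.07. With the choroid plexus level as a term Pnoc had 0.22 and Npy 0.05, and the median of the interneuron markers was -0.06.

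Trim30d (chromosome 7, 104470014 to 104507849), a member of the TRIM30 family of innate immune regulators whose near-identical copies can share reads, was 1 of 4 genes whose caffeine and water mice did not overlap in either condition. It measured 1.95, 2.07, 2.03 and 1.85 CPM against 1.24, 1.72, 1.5 and 1.59 CPM in the home cage, water first, and 2.22, 2.11, 1.84 and 2.18 CPM against 1.71, 1.39, 1.48 and 1.64 CPM after learning. Its log2 fold change was close in the 2 conditions (-0.39 and -0.43) and came to -0.41 (SE 0.094, unadjusted p = 0.000325) over both. The other genes without overlap were Rrh, an opsin-like photopigment protein, also lower (-0.79), and Upk1a and Gm42715, both higher (1.0 and 0.44); Gm42715 overlaps Srcap and Tmem265, so its reads are uncertain. These amount to 2 genes in each direction, 0.0112% of those tested. All 4 had an average log2 CPM below 1 and were named after their values were seen. Knstrn, which encodes a spindle and kinetochore protein, was higher by 0.65 (SE 0.16), with 1.0 after learning and 0.28 in the home cage (unadjusted p = 0.0158 for the difference); it overlaps Gm14091. BC018473, annotated as antisense, had a log2 fold change of -0.95 (SE 0.23) at 0.14 to 0.73 CPM over all mice, a level at which few reads carry the estimate, and whether counting used strand is not given in the sources used here.

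**Figure D2:**
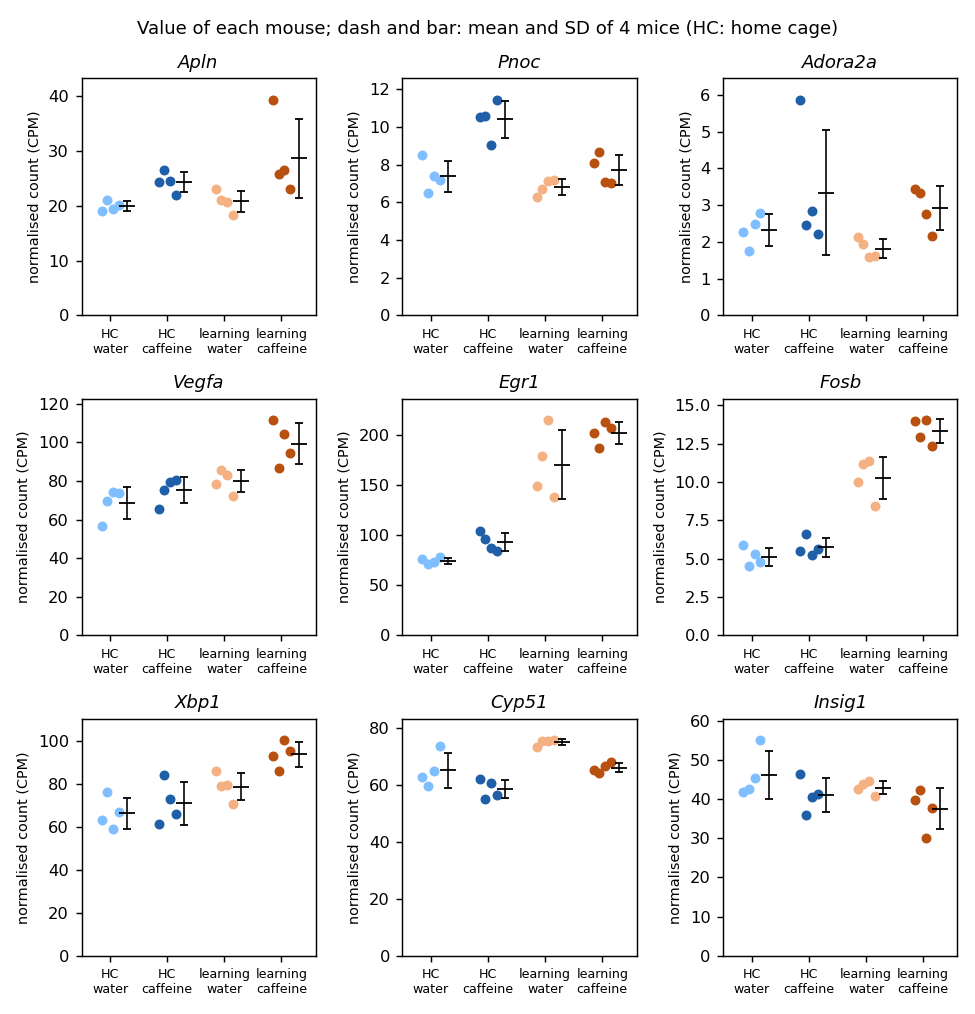
Normalised counts (CPM, y axes from 0) of 9 genes in each of the 16 mice, by group, with the mean and SD of 4 mice as dash and bar. Apln and Pnoc of home cage caffeine mice and Cyp51 of learning caffeine mice stand clear of their water groups, while in the learning groups of Egr1 and the home cage groups of Insig1, Fosb and Xbp1 the points mix.

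Among the genes of adenosine signaling, Adora2a alone reached an unadjusted p under 0.05. Adora2a (chromosome 10, 75316877 to 75334784) was measured at 2.26, 1.75, 2.48 and 2.79 CPM in home cage water mice and 5.87, 2.46, 2.84 and 2.2 CPM in home cage caffeine mice. After learning it stood at 2.13, 1.94, 1.58 and 1.63 CPM with water and 3.44, 3.34, 2.77 and 2.16 CPM with caffeine, and there the groups did not overlap. In the home cage 2 of 4 caffeine mice lay above all water mice and 1 of them, mouse 2, stood far above the others. The log2 fold change was 0.61 (SE 0.18, 95% interval 0.23 to 0.99, unadjusted p = 0.00339, adjusted p = 0.874), 0.54 in the home cage and 0.68 after learning, and without mouse 2 it was 0.42. Of 7 markers of the striatum, the region richest in this receptor, 0 had an unadjusted p under 0.05, beside 4.21% of all genes, with a median of -0.03. Their summed level was 119 to 131 CPM in home cage water and 116 to 135 CPM in home cage caffeine mice, and 103 to 110 CPM in learning water and 97.9 to 115 CPM in learning caffeine mice.

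Adora1 had a narrow interval, at 0.03 (SE 0.049, 95% interval -0.07 to 0.14). Adora2b and Adora3 had values of -0.03 (SE 0.11) and -0.19 (SE 0.13). Adk, adenosine kinase and the main route of adenosine clearance in the brain, had 0.03 (SE 0.040), and the transporter gene Slc29a1 had 0.12 (SE 0.072). Over the 23 tested genes of this list, 1 was higher and 0 lower at an unadjusted p under 0.05, beside 2.07% and 2.14% of all genes, and the median log2 fold change was -0.01. Phosphodiesterases, which caffeine inhibits as proteins, gave 1 higher and 1 lower of 19: Pde4a, which degrades cyclic AMP, at 0.14 (SE 0.044), and Pde1c, which degrades cyclic AMP and cyclic GMP under calcium control, at -0.27 (SE 0.099). Of the 19 calcium store genes, 1 was higher (Calr, 0.13) and 0 lower, with a median of 0.00.

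Immediate early genes leaned to higher values under caffeine. Of 31 tested members, 9 were higher and 1 lower at an unadjusted p under 0.05, beside 2.07% and 2.14% of all genes; 26 had a positive and 5 a negative estimate, and their median was 0.11. Those higher were Egr1, Fosb, Npas4, Nptx2, Fos, Ier5, Nr4a2, Egr2 and Maff, and Ier3, a stress-induced survival factor, was lower. Stronger activation of Fosb by learning under caffeine was already reported by the study from these same mice. As the list was chosen with such results known, its count is no independent evidence. Egr1, a zinc finger transcription factor induced by synaptic activity, measured 76.2, 71.3, 72.7 and 77.9 CPM in home cage water mice and 104, 95.9, 87.2 and 83.8 CPM in home cage caffeine mice. Learning mice had 149, 179, 214 and 138 CPM with water and 201, 186, 213 and 206 CPM with caffeine. All home cage caffeine mice lay above their controls, and the learning groups overlapped, with water mouse 36 the highest of all. Egr1 was 1.21-fold higher over both conditions (log2 fold change 0.28, SE 0.072, unadjusted p = 0.00105, adjusted p = 0.646).

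Fosb, an AP-1 subunit, showed the reverse arrangement of overlap. It measured 5.87, 4.56, 5.34 and 4.81 CPM and 5.53, 6.59, 5.22 and 5.61 CPM in home cage water and caffeine mice, which overlapped. After learning, 9.98, 11.2, 11.4 and 8.40 CPM with water lay wholly below 14, 12.9, 14 and 12.4 CPM with caffeine. Its log2 fold change was 0.28 (SE 0.078, unadjusted p = 0.00221). The estimate for Fosb was 0.16 in the home cage and 0.38 after learning, with an unadjusted p of 0.163 for the difference between conditions. For 2 further activity-induced transcription factors the home cage estimate was the larger: Fos had 0.92 (SE 0.21) there and 0.10 (SE 0.18) after learning, with an unadjusted p of 0.00863 for the difference, and Npas4 had 0.67 and 0.14 with 0.0393. Neither difference passed adjustment over all genes. Nptx2, a pentraxin that clusters AMPA receptors at synapses, had similar values of 0.21 and 0.27. Other genes of the class gave no such value: Arc, which tags active synapses, had 0.16 (SE 0.14), the growth factor gene Bdnf had 0.00 (SE 0.077), and Jun had -0.02 (SE 0.10). Adding the choroid plexus level left 6 higher and 0 lower with a median of 0.07, and leaving out mice 20 and 17 gave 8 higher and 1 lower with a median of 0.11. Without the condition term 3 were higher and 1 lower.

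Maff, a member of this list, holds a complete cyclic AMP response element (TGACGTCA, the site that the activity-regulated factor CREB binds) in the stretch that precedes a start site, and it is shown for that reason. RefSeq lists 3 promoters for Maff, and the first of them that holds the element is printed. Which start is used in the hippocampus was not tested. The sequence is that of the GRCm38.p6 assembly, chr15:79347270-79347519 on the + strand. It covers 250 bases up to the start, which lie in an intron of a longer GENCODE transcript. Capitals mark the element, whose first base is at -29.
Maff: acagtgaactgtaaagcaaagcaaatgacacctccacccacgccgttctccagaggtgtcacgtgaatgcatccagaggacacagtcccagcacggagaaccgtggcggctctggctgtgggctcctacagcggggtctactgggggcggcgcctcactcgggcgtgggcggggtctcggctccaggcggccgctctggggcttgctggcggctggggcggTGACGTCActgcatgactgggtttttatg
The element, searched on both strands of 250 bases before the start, was found in 3 of the 26 immediate early genes with a listed promoter (Btg2, Dusp1 and Maff) and in 1.77% of 27025 genes. Maff, a small Maf transcription factor, was higher by 0.47 (SE 0.21), whereas Btg2 and Dusp1 had -0.01 (SE 0.11) and 0.11 (SE 0.11). The level of Maff was low, at 0.48 to 1.24 CPM with water and 0.59 to 2.35 CPM with caffeine. Its estimate was 0.14 in home cage mice alone and 0.88 with the choroid plexus level as a term.

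Genes of the unfolded protein response, the program by which cells raise chaperones and folding enzymes of the endoplasmic reticulum, also leaned to higher values under caffeine. Of 24 tested members, 7 were higher and 0 lower at an unadjusted p under 0.05, beside 2.07% and 2.14% of all genes, and the median was 0.08. Xbp1, the transcription factor that drives this program after its mRNA is spliced by Ern1, measured 63.4, 76.4, 59.1 and 66.9 CPM in home cage water mice and 61.3, 84.4, 72.9 and 66.2 CPM in home cage caffeine mice. After learning it measured 86.0, 79.3, 79.5 and 70.7 CPM with water and 93.4, 86.1, 100 and 95.7 CPM with caffeine. The home cage groups overlapped and the learning groups did not, the lowest caffeine value exceeding the highest water value by a narrow margin. Xbp1 was higher by 0.17 (SE 0.066, unadjusted p = 0.0165, adjusted p = 0.980). The unadjusted p for the difference between conditions was 0.256. Counts per gene do not separate spliced from unspliced mRNA. The study reported Xbp1 as more activated by learning under caffeine in these same mice. The list was chosen with such results known, so its count is no independent evidence.

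The calcium-binding chaperone Calr had 0.13 (SE 0.057), the disulfide isomerase Pdia6 0.15 (SE 0.068), the chaperone cofactors Sdf2l1 and Dnajb11 0.21 (SE 0.096) and 0.11 (SE 0.052), and the degradation factor Herpud1 0.09 (SE 0.043). Ddit3, the death-related factor CHOP, had 0.15 (SE 0.061) and was the member whose home cage groups did not overlap, while Xbp1, Dnajb11, Hyou1 and Herpud1 had no overlap after learning. The share of all genes without overlap in a single condition was not counted, so these members describe the mice and carry no result for the list. The central chaperone Hspa5 (BiP) had 0.17 (SE 0.099, unadjusted p = 0.0970). The sensors had negative estimates that did not pass the test: Atf6 at -0.08 (SE 0.070), Ern1 at -0.07 (SE 0.058) and Eif2ak3 at -0.04 (SE 0.047). In learning mice alone the list's median was 0.12 and in home cage mice 0.05, and Herpud1 differed between the conditions at an unadjusted p of 0.0118. The count depended on single mice. With the choroid plexus level as a term it was 11 and the median 0.14, and without mice 20 and 17 it was 11 and the median 0.12, but it was 2 to 4 when any 1 of home cage water mice 6 or 11, learning water mice 33, 36 or 38, or learning caffeine mice 22, 30 or 40 was left out, 11 without home cage water mouse 8 and 12 without home cage caffeine mouse 17; without the condition term it was 2. The median stayed between 0.07 and 0.11 over the 16 omissions.

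Some promoters of this list hold a site of the factors that drive the program. The list was written from known genes of the program, so the share below follows in part from that choice and is no evidence of a caffeine effect. The endoplasmic reticulum stress element (CCAAT and CCACG with 9 bases of any kind between, bound by NF-Y at one end and by ATF6 or XBP1 at the other) was found, on either strand of the 250 bases before the RefSeq start, in 7 of 21 members with a listed promoter (Calr, Canx, Creld2, Dnajc3, Hsp90b1, Hspa5 and Pdia6), against 0.130% of 27025 genes. A pair of members with an unadjusted p under 0.05 is shown, with the element in capitals and trimmed to bases outside GENCODE exons: Calr at chr8:84846935-84847181 (- strand, GRCm38.p6), where it runs in reverse from -162, and Pdia6 at chr12:17266339-17266544 (+ strand), where it runs forward from -98.
Calr: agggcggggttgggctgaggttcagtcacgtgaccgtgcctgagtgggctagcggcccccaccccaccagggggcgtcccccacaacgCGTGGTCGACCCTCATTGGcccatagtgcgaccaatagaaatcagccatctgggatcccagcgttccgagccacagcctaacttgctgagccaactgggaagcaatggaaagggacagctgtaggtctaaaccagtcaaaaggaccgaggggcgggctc
Pdia6: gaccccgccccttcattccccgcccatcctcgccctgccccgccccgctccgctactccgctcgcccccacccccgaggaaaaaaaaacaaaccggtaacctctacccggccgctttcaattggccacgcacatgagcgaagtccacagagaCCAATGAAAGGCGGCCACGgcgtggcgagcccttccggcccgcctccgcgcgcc
Members that hold the element had different values: Canx and Dnajc3 hold it and had 0.00 (SE 0.032) and 0.03 (SE 0.060).

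Cholesterol synthesis genes, which make sterols from acetyl-CoA and which neurons and astrocytes run locally because plasma cholesterol does not enter the brain, leaned the other way. Of 27 tested members, 0 were higher and 7 lower at an unadjusted p under 0.05 (among them Cyp51, Lss, Insig1, Hsd17b7 and Mvk), beside 2.07% and 2.14% of all genes; 23 had a negative and 4 a positive estimate, with a median of -0.09. The smallest p belonged to Cyp51 (chromosome 5, 4081145 to 4104746), the lanosterol demethylase of the late pathway, which overlaps Akap9. Cyp51 measured 62.8, 59.7, 64.9 and 73.9 CPM in home cage water mice and 62.2, 55.2, 60.7 and 56.6 CPM in home cage caffeine mice. In learning mice it measured 73.5, 75.6, 75.5 and 75.8 CPM with water and 65.4, 64.5, 66.9 and 68.2 CPM with caffeine. The learning groups did not overlap, and in the home cage 2 of 4 caffeine mice lay below all water mice. The level was 1.12-fold lower (log2 fold change -0.17, SE 0.041, 95% interval -0.25 to -0.08, unadjusted p = 0.000592), and the estimates of the 2 conditions were close (-0.15 and -0.18).

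Insig1, which holds the sterol sensor in the endoplasmic reticulum, measured 41.7, 42.7, 45.3 and 55 CPM in home cage water mice and 46.5, 36, 40.6 and 41.3 CPM in home cage caffeine mice. In learning mice it measured 42.7, 43.8, 44.6 and 40.7 CPM with water and 39.8, 42.2, 30.2 and 37.8 CPM with caffeine. Groups overlapped in both conditions, and in each of them 3 of 4 caffeine mice lay below all water mice. Its log2 fold change was -0.18 (SE 0.070, unadjusted p = 0.0175). Lss, lanosterol synthase, had -0.14 (SE 0.052), Hsd17b7, a ketoreductase of the late pathway, -0.15 (SE 0.066), and Mvk, mevalonate kinase, -0.14 (SE 0.063). The regulators themselves gave no such value: Srebf2, the factor that drives the pathway, had -0.04 (SE 0.040) and its escort Scap 0.03 (SE 0.036). The part of the choroid plexus level in this result was not tested beyond the following values. With that level as a term 2 members were lower and the median was -0.02, while Cyp51 had -0.14 and Mvk -0.19, and without mice 20 and 17 there were 4 and the median was -0.05. Omitting home cage water mouse 20 alone gave 3 and home cage caffeine mouse 9 gave 4; the median over single omissions ran from -0.11 to -0.05. Of 29 genes of fatty acid synthesis and lipid handling, 0 were higher and 4 lower (Elovl7, Cpt1a, Fads2 and Acsl3), beside 2.07% and 2.14% of all genes, with a median of -0.03. With the choroid plexus level as a term 0 were lower, the median of the fatty acid synthesis and lipid handling list was -0.0002 and Elovl7 went from -0.33 to -0.04; without mice 20 and 17 there were 2 and the median was -0.01.

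Shared letters were searched in these promoters too. The CCAAT box, the site of the general factor NF-Y, stood in 18 of the 20 cholesterol genes with a listed promoter and in 37.5% of 27025 genes; 18 of 21 unfolded protein response genes hold it as well, in some as part of the stress element above. The sterol response element searched (ATCAC and CCAC with 1 base of any kind between) was found in 0 of 20 and in 0.226% of all genes, which says only that these letters are not in the window. A pair of members with an unadjusted p under 0.05 is shown, trimmed to bases outside GENCODE exons and with the box in capitals, read in reverse in each: Lss at chr10:76531355-76531587 (+ strand, GRCm38.p6), from -62, and Insig1 at chr5:28071162-28071362 (+ strand), from -216.
Lss: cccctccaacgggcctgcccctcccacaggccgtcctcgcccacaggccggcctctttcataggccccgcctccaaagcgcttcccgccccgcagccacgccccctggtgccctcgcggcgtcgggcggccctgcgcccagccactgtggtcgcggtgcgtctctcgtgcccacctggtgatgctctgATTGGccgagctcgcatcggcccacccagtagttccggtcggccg
Insig1: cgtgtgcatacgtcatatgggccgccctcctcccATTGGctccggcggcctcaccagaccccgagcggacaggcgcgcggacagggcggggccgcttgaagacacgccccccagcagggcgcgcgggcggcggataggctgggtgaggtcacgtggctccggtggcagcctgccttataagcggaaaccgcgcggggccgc
Cyp51 also holds the box, in bases that GENCODE places in its first exon, and is not printed.

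Choroid plexus transcripts held the largest estimates of the comparison. The choroid plexus is the epithelium that lines part of the ventricles beside the hippocampus and secretes cerebrospinal fluid. All 16 tested markers were lower at an unadjusted p under 0.05 and 0 were higher, beside 2.14% and 2.07% of all genes, with a median of -1.15 and a range from -2.40 to -0.48. Ttr, the thyroxine carrier that the epithelium secretes, measured 245, 1026, 812 and 2161 CPM in home cage water mice and 144, 421, 207 and 188 CPM in home cage caffeine mice. In learning mice it measured 355, 114, 147 and 363 CPM with water and 154, 92.9, 140 and 74.0 CPM with caffeine. Groups overlapped in both conditions, and 3 of 4 home cage caffeine mice and 2 of 4 learning caffeine mice lay below all water mice of their condition. The log2 fold change was -1.62 (SE 0.38, unadjusted p = 0.000430).

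Tmem72, a membrane protein of this epithelium, had the smallest p of all genes (4.80e-05). It measured 3.33, 13.7, 12.2 and 24.5 CPM in home cage water mice, 1.07, 2.07, 1.36 and 1.12 CPM in home cage caffeine mice, 2.61, 0.955, 0.752 and 3.55 CPM in learning water mice and 1.39, 0.578, 0.963 and 0.491 CPM in learning caffeine mice. Only the home cage groups were apart, and the log2 fold change was -3.31 (SE 0.52) there and -1.19 (SE 0.57) after learning (unadjusted p = 0.0143 for the difference). The bicarbonate transporter gene Slc4a5 had -2.07 (SE 0.42), the prolactin receptor gene Prlr, which overlaps Gm21973, -1.10 (SE 0.22), and the potassium channel subunit gene Kcne2 -1.69 (SE 0.39). F5, coagulation factor V, which overlaps Gm16548, had -1.14 (SE 0.27). Outside the marker list, Acox2, Sulf1, Wfdc2, Ace, 1500015O10Rik, Mfrp and Col17a1 stood among the 20 genes of smallest p with estimates from -1.90 to -0.71; all were lower, and their estimates moved to between -0.70 and -0.10 with the choroid plexus level as a term.

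The summed level of the 16 markers, as log2 of the summed CPM, ran from 9.23 to 11.7 in home cage water, 8.85 to 9.89 in home cage caffeine, 8.63 to 9.81 in learning water and 8.22 to 8.88 in learning caffeine mice. With this level as a term the median of the list was -0.03, with 1 member higher and 2 lower, which its construction fixes in part, since the level is built from the same genes. Without mice 20 and 17, 15 of 16 were lower and the median was -0.89. In bulk tissue, fewer cells of a type and less RNA per cell cannot be told apart, and how much plexus each dissection held was not measured. Otx2, the factor that maintains the plexus epithelium, had -1.07 (SE 0.28); its target letters TAATCC stood in 1 of 11 listed promoters of the markers and in 7.21% of all genes.

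**Figure D3:**
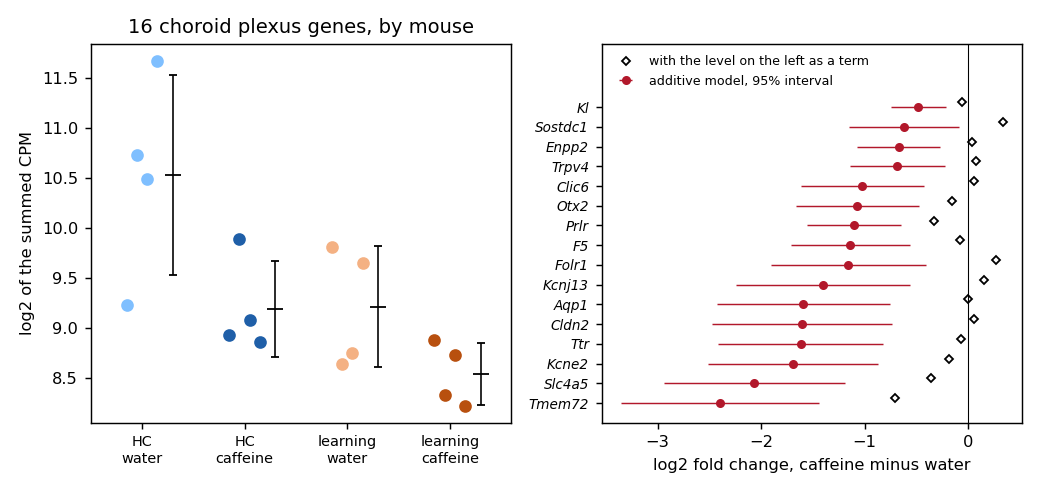
Left, log2 of the summed CPM of 16 choroid plexus genes in each of 16 mice, with the mean and SD of 4 mice; right, log2 fold change of each gene with its 95% interval (red) and its value with the level on the left as a term (open diamonds). Home cage water mouse 20 is the highest at 11.7, and the estimates from -2.40 to -0.48 move to between -0.71 and 0.34.

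Vessel genes had small positive medians. Vegfa, the endothelial growth factor (chromosome 17, 46016993 to 46032369), measured 56.6, 69.9, 74.1 and 73.7 CPM in home cage water mice and 65.7, 75.6, 79.3 and 80.3 CPM in home cage caffeine mice. In learning mice it measured 78.3, 85.6, 83.3 and 72.4 CPM with water and 111, 86.9, 105 and 94.7 CPM with caffeine. In the home cage 3 of 4 caffeine mice exceeded all water mice, and after learning the groups did not overlap. Its log2 fold change was 0.22 (SE 0.067, unadjusted p = 0.00345, adjusted p = 0.874), 0.13 in the home cage and 0.31 after learning. The unadjusted p for the difference between conditions was 0.180. The VEGF receptor gene Kdr had 0.25 (SE 0.10) and no overlap of the learning groups, 1 of 10 endothelial markers with an unadjusted p under 0.05, and the list had 0 lower and a median of 0.08; Cldn5 and Pecam1 had 0.19 (SE 0.11) and 0.07 (SE 0.059). Of 9 mural cell markers, 1 was higher (Tagln, 0.41, SE 0.16) and 0 lower, with a positive estimate in 9 of 9 and a median of 0.12. Over all tested genes, 2.07% were higher and 2.14% lower at an unadjusted p under 0.05, and 52.3% had a negative estimate. In the endothelial and the mural list the count rests on 1 member.

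Other pathway lists had few members past an unadjusted p of 0.05. That level was reached by 2.07% of all genes as higher and by 2.14% as lower. Glutamatergic synapse genes gave 0 higher and 0 lower of 43, oxidative phosphorylation subunits 0 and 0 of 77 (63 with a positive estimate), glycolysis genes 0 and 0 of 31, and glucocorticoid response genes 0 and 0 of 19 at an unadjusted p under 0.05. Insulin signaling had 1 higher of 38 (Akt2, 0.16), histone acetylation genes 1 higher of 30 (Hdac5, 0.13), ribosomal protein genes 1 lower of 80 (Rpl19, -0.32), and clock genes 2 higher of 23 (Arntl, 0.16, and Nfil3, 0.21). The medians of these 8 lists over both conditions lay between -0.03 and 0.03. Some differed by condition. Glucocorticoid response genes had medians of -0.12 in the home cage and 0.08 after learning, and ribosomal protein genes 0.08 and -0.04. Rpl19 had a low count, with 0.546 CPM in learning caffeine mouse 40 and 0.863 to 0.880 CPM in the others of that group. The authors kept only uniquely aligned reads, so reads shared with near-identical sequences would be missing from this count, which was not tested. Without mouse 40 the log2 fold change of Rpl19 was -0.25. Astrocyte, mature oligodendrocyte, microglia, dentate granule cell, CA1 and CA3 markers had 0 members at this level in either direction, and their medians ran from -0.07 to 0.06. Mature oligodendrocyte markers had medians of opposite sign in the conditions, 0.22 in the home cage and -0.34 after learning, and over single omissions of mice their median ran from -0.16 to 0.11. Microglia markers had medians of 0.06 in the home cage and -0.07 after learning. Markers of other tissue that a dissection can include also had few members at an unadjusted p under 0.05. Of these lists, ependymal markers had medians of 0.15 in the home cage and -0.41 after learning. The test of the difference between conditions gave an unadjusted p under 0.05 for 5 of 11 thalamus and habenula markers, beside 3.63% of all genes. Meningeal fibroblast markers gave 0 higher and 0 lower of 10 with a median of 0.21, ependymal markers 1 higher of 8 (Tmem107, 0.19) with -0.07, blood cell markers 0 and 0 of 5 with -0.09, thalamus and habenula markers 0 and 0 of 11 with -0.03, neocortex markers 0 and 0 of 6 with 0.05, and oligodendrocyte precursor markers 1 lower of 8 (Pdgfra, -0.12) with -0.03. Single mice moved these medians: that of meningeal fibroblasts was 0.03 without learning caffeine mouse 30 and ran up to 0.31, that of ependymal cells was 0.14 without learning water mouse 24 and otherwise negative, and that of blood cells was 0.08 without the same mouse and 0.02 without home cage water mouse 11.

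**Figure D4:**
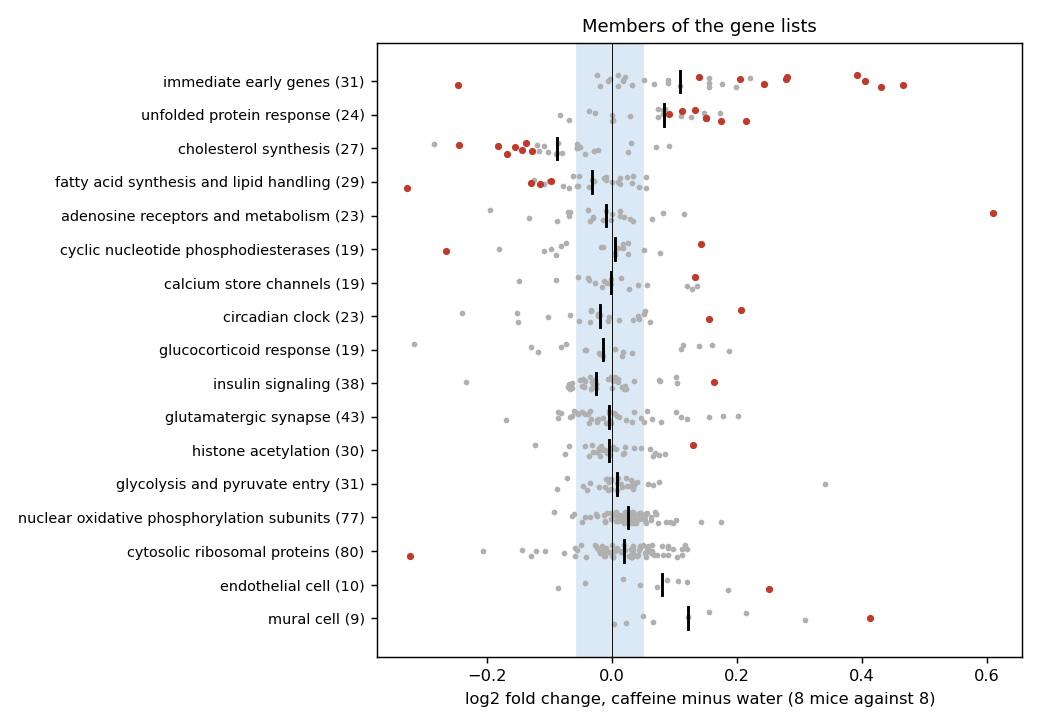
Log2 fold change of caffeine over water (x axis) for every tested member of 17 gene lists (y axis, with the number of members); red points have an unadjusted p under 0.05, black bars are medians, and the blue band is the interquartile range of all 17830 genes, -0.06 to 0.05. The medians of immediate early genes (0.11) and the unfolded protein response (0.08) lie to the right of the band and that of cholesterol synthesis (-0.09) to the left.

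The last lists come from the study's own results on caffeine-treated hippocampus. Its protein and chromatin lists describe mice without maze training, whereas the values here are mRNA averaged over both conditions, so the comparison is not like for like. Of 129 tested genes whose proteins the study lists as increased, 3 (2.33%) were higher (Crocc, Ubqln4 and Sart1) and 2 (1.55%) lower (Cdh10 and Rbm3) at an unadjusted p under 0.05, with a median of -0.01. The shares of all tested genes, to be read beside each list here, were 2.07% higher and 2.14% lower. Crocc, a ciliary rootlet protein, had 0.24 (SE 0.065, unadjusted p = 0.00183). Of 48 genes of decreased proteins, 1 was higher (Isyna1, 0.19) and 1 lower (Ttr), with a median of 0.00. Of 665 tested genes at regions listed as depleted of H3K9/14ac, a mark of active promoters, 18 (2.71%) were higher and 10 (1.5%) lower, near those shares of all genes, with a median of 0.00. Of 30 genes that the study names for bulk hippocampus, partly from these same mice and so no independent evidence, 4 were higher (Adora2a, Fosb, Xbp1 and Vegfa) and 1 lower (Cyp51), with a median of 0.00. Among the rest, Irs1, an insulin receptor substrate, had -0.04 (95% interval -0.17 to 0.08), Gsk3b, a kinase of the same pathway, -0.06 (-0.17 to 0.04), Shank3, a postsynaptic scaffold, 0.10 (-0.06 to 0.27), and Crtc1, a CREB coactivator, 0.00 (-0.08 to 0.09).

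**Figure D5:**
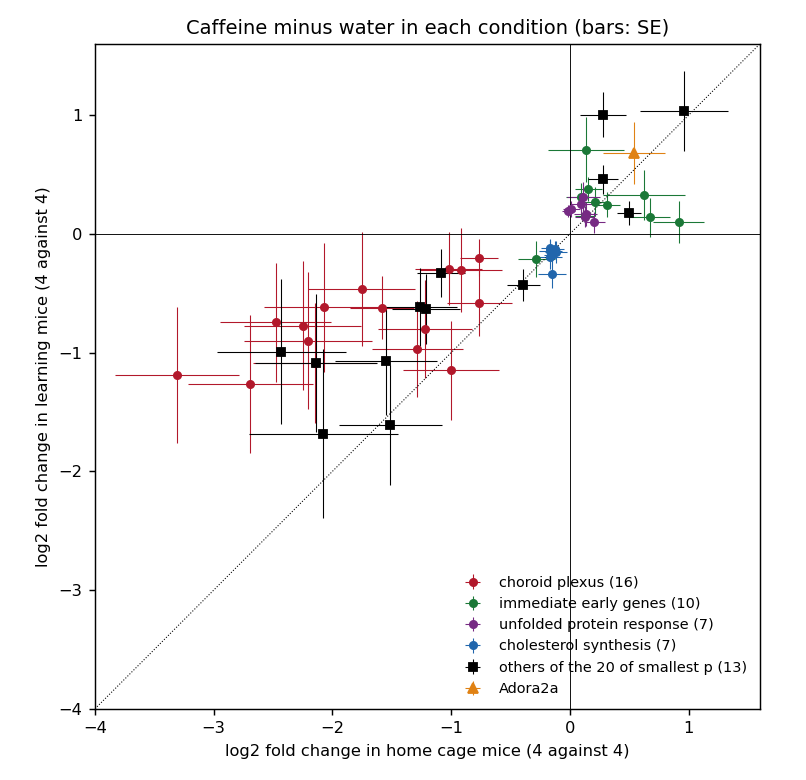
Log2 fold change of caffeine over water in home cage mice (x axis) and in learning mice (y axis), 4 against 4 in each, for genes with an unadjusted p under 0.05 in 4 lists, the others of the 20 genes of smallest p, and Adora2a; bars are SE and the dotted line marks equal values. Choroid plexus genes other than Otx2 lie above the line with home cage estimates down to -3.31, Cyp51, Lss, Insig1, Hsd17b7 and Mvk lie between -0.17 and -0.12 on the x axis and between -0.20 and -0.12 on the y axis, and Pnoc (0.50 and 0.18) and Knstrn (0.28 and 1.0) sit on either side of the line.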

How the data were processed

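Messenger RNA of the dorsal hippocampus of 16 mice was sequenced with a stranded kit. The authors aligned reads with STAR to the mouse genome mm10 and counted them per gene with HTSeq 0.6.1p1, after bcl2fastq 2.17.1.14 had made the read files; the strand setting of the counting is not given in the sources used here. The deposited values are counts, not normalised, for 35328 genes, and 35247 of them matched GENCODE M21, which gave symbols, coordinates and overlaps. Of the per-sample columns, 0 were left unused. Groups came from the sample labels, and the members and gene lists were chosen with earlier results of these data known.

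Genes were kept by edgeR's filterByExpr over the 4 groups (17830 genes), libraries were scaled by TMM, and edgeR 4.0.16 (R 4.3.3) fitted a quasi-likelihood model with condition and treatment as additive terms; a second model added their interaction. Genes with a Benjamini-Hochberg adjusted p under 0.1 were called, and unadjusted p-values under 0.05 are given as counts. The genes of smallest p up to 20 were named, with 2 to 4 members of each list (those of smallest p and those the study names); others were chosen after their values were seen. SE and 95% intervals came from the fit, and levels are CPM on TMM-scaled totals. Labels name separate mice, so the spread includes biological variation. Totals of 23078094 to 49949281 counts gave a median SE of 0.073 on the log2 scale. The procedure was tested on simulated data.

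Alternatives were DESeq2 1.42.0 (Wald test) and its size factors, other count filters, an adjusted p under 0.05, robust empirical Bayes, no condition term, 4 group means, each condition alone, the summed choroid plexus level as a term, a length and GC correction, thinning to the smallest total, omission of 2 mice and of each mouse in turn. Promoter sequences are those of RefSeq on GRCm38.p6, and those of 1 chromosome were left out. Gene lists from the study's supplementary tables served only as names. Results of some genes are not reported here.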

Additional observations from a re-analysis of the deposited data

Results flagged for a closer look

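Among 77 named genes in 4 groups of 4 mice, 18 of 308 sets had 1 mouse whose gap to the nearest of the others exceeded Dixon's critical value at 95%, and chance gives about 1 in 20. Home cage caffeine mouse 9 was high among its group in 4 choroid plexus transcripts, with 1.94 CPM of Kcne2, 0.732 CPM of Wfdc2, 4.44 CPM of Folr1 and 5.30 CPM of Otx2, where the other mice had at most 1.11, 0.251, 2.24 and 1.99 CPM. Home cage water mouse 20 was high for Col17a1 (1.32 CPM against at most 0.382 CPM). Home cage caffeine mouse 2 was high for Nptx2 (40.2 CPM) and Nfil3 (10.4 CPM) and low for Tmem107 (6.40 CPM). Home cage caffeine mouse 17 was low for BC018473 (0.223 CPM) and high for Mvk (20.3 CPM), and home cage water mouse 6 was low for Egr2 (0.119 CPM against at least 0.542 CPM).

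Learning water mouse 24 was high for Calr (362 CPM against at most 312 CPM) and Crocc (72.1 CPM) and low for Cyp51 (73.5 CPM against at least 75.5 CPM). Learning water mouse 38 was low for Mvk (17.9 CPM), learning water mouse 33 was low for Lss (41.2 CPM), learning caffeine mouse 27 was low for Sdf2l1 (8.63 CPM), and learning caffeine mouse 40 was low for Rpl19 (0.546 CPM).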

How the results depend on the processing

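No paired analysis was possible because the replicate numbers are mouse numbers that no 2 groups share. The counts of called genes rested on the filter and the tool. With at least 1 count in total as the filter, 1 gene was called higher, 23 lower and 9 for a difference between conditions. DESeq2 called 0 higher, 4 lower and 7 for the difference. Leaving out each mouse in turn gave 0 to 0 genes higher, 0 to 4 lower and 0 to 1 for the difference; the 4 lower genes (Slc4a5, Tmem72, Prlr and Sulf1) appeared without home cage water mouse 6, and 1 gene for the difference appeared without home cage caffeine mouse 14 and without learning water mouse 38. The causes of these changes were not tested. The other alternatives called 0 genes.

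Genes with an unadjusted p under 0.05 numbered 751 here, 1439 with at least 1 count in total as the filter, 594 without the condition term and 992 with the choroid plexus level as a term. Of 77 named genes, 68 kept their sign in those of the 30 alternatives that tested them; a few genes of low level did not pass the filter in some. With the choroid plexus level as a term, which is built from the same genes, the sign turned for Folr1 (0.27), Clic6 (0.058), Aqp1 (0.0002), Cldn2 (0.060), Kcnj13 (0.16), Sostdc1 (0.34), Enpp2 (0.039) and Trpv4 (0.078). Herpud1 was at -0.011 in home cage mice only. The median of 7 of 36 lists moved by more than the spread between mice in at least 1 alternative. With 8 mice a treatment, intervals of genes below an average log2 CPM of 1 often reached past 0.5 in size, so that small changes of many such genes were not detectable.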
